A study of Mus musculus with 6 samples.

Results

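Integrins are the receptors through which a cell holds on to the surrounding matrix. Each receptor is a pair of one alpha and one beta subunit, and the pair decides which matrix protein is bound: alpha5-beta1 binds fibronectin, alpha1-beta1 and alpha11-beta1 bind collagens, and alpha6-beta1 and alpha7-beta1 bind laminins. In heart muscle the alpha7-beta1 pair anchors the cardiomyocyte to its laminin coat, whereas fibroblasts use fibronectin, collagen and alphav receptors, and alphav pairs also release latent TGF-beta from the matrix. The 10 subunits described here are the alpha chains Itga1, Itga5, Itga6, Itga7, Itga8, Itga9, Itga11 and Itgav and the beta chains Itgb1 and Itgb5. They were chosen by name, as the rows and columns that carry these genes, from 27179 genes of the bulk table and 30750 Ensembl genes of the single-cell tables, and all 10 were present in both.

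Immature cardiomyocytes (imCMs) of C57BL/6 mice, isolated on the first postnatal day, had been grown on cardiac fibroblasts of neonatal hearts (NF) or of adult hearts (AF) of the same strain, which had been passaged beforehand. RNA of the co-cultured cardiomyocytes was sequenced in bulk in 2 imCM-NF and 2 imCM-AF libraries, with 9278909 to 12088577 counts each. Cells were also sequenced singly on nanowell chips, in 1 library labelled cardiomyocytes and 1 library labelled fibroblasts, where each transcript carries a unique molecular identifier (UMI). The bulk libraries were all of co-cultured cells, none was of imCMs without fibroblasts, and the AF cultures were set up with a larger number of fibroblasts for each imCM than the NF cultures. Nothing in the labels says that the 2 libraries of a group came from separate cultures, so p-values measure the spread between these libraries, which may be technical.

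In bulk, 5 chains were lower by adjusted p in the imCM-AF than in the imCM-NF libraries. They were the fibroblast collagen receptor chain Itga11, the fibronectin and alphav receptor chains Itga5, Itgav and Itgb5 and the tenascin receptor chain Itga9. Of these, only Itga9 and Itgav also passed with DESeq2. The libraries held fibroblast and endothelial markers that were lower with AFs too, and their part in these levels was not tested. The laminin receptor chains Itga6 and Itga7, Itga1, Itga8 and the common beta1 chain did not pass the test. A gene was called when its adjusted p was under 0.05 and its log2 fold change was over 0.58 in size. By that rule 1 of the 10 subunits was called, Itga11, which was lower with AFs, beside 4.99% of the 14041 tested genes called lower, 6.15% called higher and 11.1% called in either direction. By the adjusted p alone, 5 of the 10 were lower and none was higher, beside 14.5% of all tested genes lower and 12.5% higher. The median log2 fold change was -0.20 over the 10 subunits and 0.00113 over all tested genes. Both imCM-AF libraries lay below both imCM-NF libraries for 7 of the 10 subunits, as they did for 33.9% of all tested genes.

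Itga11, the alpha chain of a collagen receptor of fibroblasts, was read at 5.68 and 6.60 CPM (counts scaled to the total of the library) in imCM-NF and at 3.01 and 3.52 CPM in imCM-AF. The groups did not overlap, but the values rested on 33 to 80 counts a library. Its log2 fold change was -0.91 ± 0.24 (SE, edgeR adjusted p = 0.0088). The call was lost without imCM-NF replicate 2 (-0.78, adjusted p = 0.105), without imCM-AF replicate 1 (-0.80, adjusted p = 0.0517) and in DESeq2 (-0.91, adjusted p = 0.0736). Itga1, the alpha chain of the other collagen receptor among the members, gave 42.1 and 35.1 CPM with NFs against 42.3 and 36.0 CPM with AFs. The groups overlapped, and the log2 fold change was 0.03 ± 0.12 (edgeR adjusted p = 0.897).

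Itgav, the alpha chain that pairs with several beta chains to bind vitronectin, fibronectin and latent TGF-beta, was at 150 and 170 CPM with NFs and at 118 and 109 CPM with AFs. It fell by 0.50 ± 0.10 on the log2 scale (edgeR adjusted p = 0.00167), under the fold set for a call, and its adjusted p stayed at or under 0.0345 without any 1 library. Without imCM-NF replicate 1 it was also past the fold, at -0.582 (edgeR adjusted p = 0.00191), and so was called there. Itgb5, a beta chain that pairs with alphav, had 315 and 299 CPM with NFs and 267 and 233 CPM with AFs. Its groups did not overlap, with a log2 fold change of -0.30 ± 0.11 and an edgeR adjusted p of 0.0499. Itga5, the fibronectin receptor chain, lay at 387 and 369 CPM with NFs and at 311 and 307 CPM with AFs, which gave -0.29 ± 0.11 on the log2 scale (edgeR adjusted p = 0.0494). For Itga5 and Itgb5 the adjusted p was over 0.05 after leaving out any 1 library, with DESeq2 and with either other scaling. Itga8, the nephronectin receptor chain, was read at 5.57 and 7.01 CPM with NFs and at 7.47 and 4.45 CPM with AFs. Here the imCM-AF libraries enclosed the imCM-NF libraries, and the log2 fold change was -0.10 ± 0.24 (edgeR adjusted p = 0.79).

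Itga9, whose pair with beta1 binds tenascin-C, was at 126 and 107 CPM with NFs and at 83.9 and 88.7 CPM with AFs. It fell by 0.43 ± 0.10 on the log2 scale (edgeR adjusted p = 0.00455), and the adjusted p stayed at or under 0.0413 without any 1 library. Itga7, the laminin receptor chain of muscle, gave 282 and 220 CPM with NFs and 261 and 275 CPM with AFs. The 2 imCM-AF values lay between the 2 imCM-NF values, and the log2 fold change was 0.10 ± 0.12 (edgeR adjusted p = 0.571). Itga6, a laminin receptor chain of epithelia and vessels, was at 41.3 and 40.5 CPM with NFs and at 38.5 and 39.3 CPM with AFs, a difference of -0.07 ± 0.10 on the log2 scale (edgeR adjusted p = 0.621). Itgb1, the beta chain shared by most of these receptors, gave 1009 and 977 CPM with NFs and 921 and 956 CPM with AFs. Its log2 fold change of -0.08 ± 0.13 did not pass the test (edgeR adjusted p = 0.679).

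**Figure D1:**
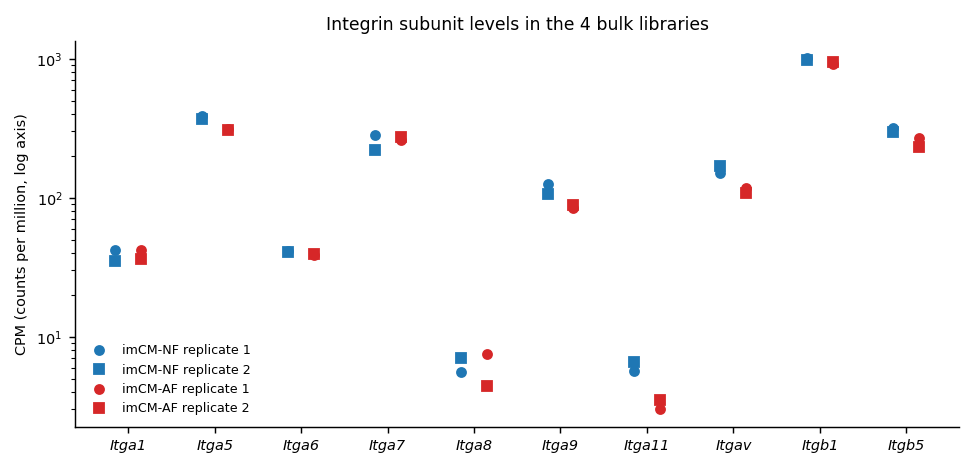
Level of each subunit in the 4 bulk libraries, in CPM on a log axis. Blue points are imCM-NF, red points imCM-AF, circles replicate 1 and squares replicate 2. For Itga11 the red points at 3.01 and 3.52 CPM lie below the blue points at 5.68 and 6.60 CPM, and for Itga1 and Itga7 the colours overlap.

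Per kilobase of exon, which allows levels to be compared between genes, Itgb1 stood first with 226 to 247 CPM per kb over the 4 libraries. Itgb5 followed with 65.5 to 88.8 and Itga5 with 62.2 to 78.5 CPM per kb, and these ranges overlapped. Itga7 came next with 27.1 to 34.8 CPM per kb, above Itga9 with 10.9 to 16.4 and Itgav with 10.2 to 15.8 CPM per kb, which overlapped each other. Itga6 with 4.26 to 4.58 and Itga1 with 1.89 to 2.27 CPM per kb were lower still. Itga11 at 0.586 to 1.29 and Itga8 at 0.603 to 1.01 CPM per kb could not be ordered. The exon lengths are GENCODE unions of all transcripts, so a gene with a long exon that these cells do not use is placed too low. GENCODE exons of other genes overlap those of Itga1 on the same strand (Gm49395) and those of Itga7, Itga8 and Itgav on the opposite strand. Since the strand setting of the counting is not stated, counts of these 4 genes may hold reads of the neighbour.

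On GRCm38, the called gene Itga11 spans chr9:62677855-62783979 and Itgav chr2:83722303-83806917 in RefSeq. Itga5 lies on the minus strand at chr15:103344286-103366791 and Itgb5 on the plus strand at chr16:33829665-33949338. The 250 bases before the RefSeq start of these members, the ones with an adjusted p under 0.05 whose start lies within 29 bases of the GENCODE gene start, are shown because they lie upstream of the members that were lower together. The Itgav window lies inside the gene span given above, before the start of the transcript in the table. Capitals mark the GC box letters GGGCGG, searched on both strands, and the windows are chr9:62677605-62677854 (plus), chr2:83724147-83724396 (plus), chr15:103366792-103367041 (minus) and chr16:33829415-33829664 (plus).
Itga11: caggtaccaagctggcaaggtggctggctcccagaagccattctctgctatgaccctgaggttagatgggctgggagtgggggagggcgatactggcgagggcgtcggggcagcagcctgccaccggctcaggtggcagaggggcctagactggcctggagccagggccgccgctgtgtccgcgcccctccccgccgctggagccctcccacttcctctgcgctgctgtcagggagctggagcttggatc
Itgav: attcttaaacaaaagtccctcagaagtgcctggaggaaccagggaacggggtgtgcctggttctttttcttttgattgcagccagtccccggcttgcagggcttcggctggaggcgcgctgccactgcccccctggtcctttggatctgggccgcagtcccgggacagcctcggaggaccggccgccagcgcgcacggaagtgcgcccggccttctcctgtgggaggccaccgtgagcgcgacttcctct
Itga5: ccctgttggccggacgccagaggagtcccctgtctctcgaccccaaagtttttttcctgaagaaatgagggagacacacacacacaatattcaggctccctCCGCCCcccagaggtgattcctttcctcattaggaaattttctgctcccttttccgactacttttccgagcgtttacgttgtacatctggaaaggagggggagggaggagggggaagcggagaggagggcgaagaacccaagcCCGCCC
Itgb5: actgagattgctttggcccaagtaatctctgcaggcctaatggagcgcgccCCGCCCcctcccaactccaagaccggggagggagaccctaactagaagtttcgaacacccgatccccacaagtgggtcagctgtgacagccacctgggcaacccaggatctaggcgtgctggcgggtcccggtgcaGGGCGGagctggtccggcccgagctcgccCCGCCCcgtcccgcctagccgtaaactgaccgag
The GC box letters occurred 2 times before Itga5 and 3 times before Itgb5, and not before Itgav or Itga11. Of 32851 windows of this length in the table, 32.7% held them. The AP-1 letters TGANTCA, held by 6.75% of all windows, and the TEAD letters GGAATG, held by 12.6%, were in none of these 4 windows. Of the members whose level did not pass the test, Itgb1 held the GC box letters 1 time and the TEAD letters 1 time, and Itga1 and Itga8 held none of the 3 motifs. The entry of Itga9 starts 105002 bases from the GENCODE gene start and is not shown, and Itga6 and Itga7 had no entry.

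Of the 16 other integrin subunits, 12 passed the filter on low counts. Of these, 4 were called, 2 lower and 2 higher, beside 11.1% of all tested genes called in either direction. Itga4, a receptor chain for VCAM1 and fibronectin, had 9.46 and 12.2 CPM with NFs and 5.92 and 6.38 CPM with AFs, or -0.83 ± 0.19 on the log2 scale (edgeR adjusted p = 0.00445). Itgb4, the beta chain that pairs with alpha6, went from 6.68 and 5.61 CPM to 2.64 and 3.35 CPM, with -1.01 ± 0.25 (edgeR adjusted p = 0.00582). Itgb6, a partner of alphav, was higher with AFs at 13.7 and 15.8 CPM against 11.6 and 7.84 CPM, with 0.63 ± 0.18 (edgeR adjusted p = 0.0174). Itgad, a leukocyte chain, was higher at 1.28 and 2.77 CPM against 0.668 and 0.908 CPM, on 6 to 33 counts a library, with 1.34 ± 0.45 (edgeR adjusted p = 0.0354). Neither of the higher calls was made by DESeq2, and limma-voom made 1 of them. The median log2 fold change of the 12 was -0.20.

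**Figure D2:**
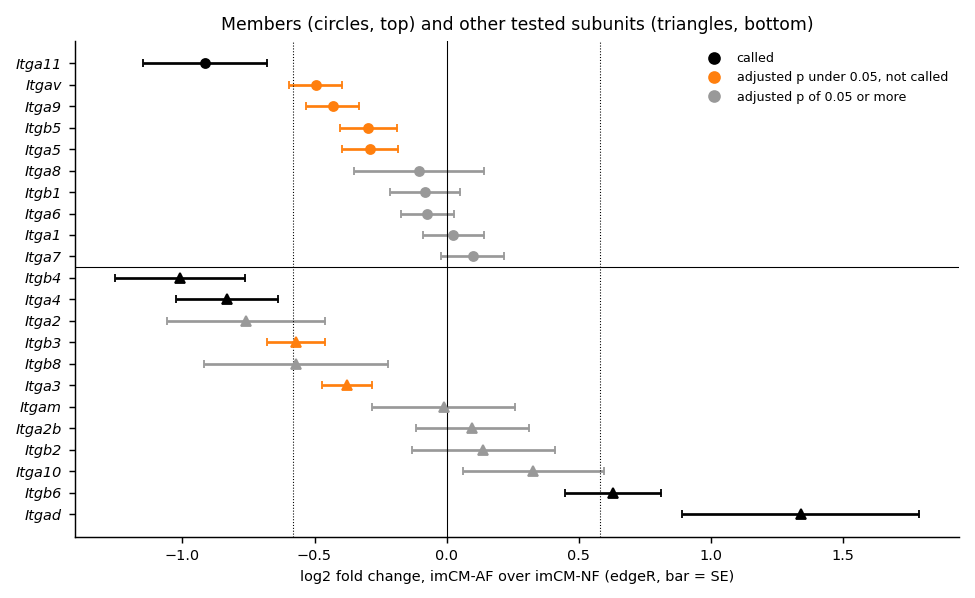
Log2 fold change of imCM-AF over imCM-NF with its SE, for the 10 members (circles) and the 12 other tested subunits (triangles). Dotted lines mark 0.58 either side of 0. Itga11, Itga4 and Itgb4 lie beyond the left line, Itgb6 and Itgad beyond the right one, and Itga5, Itga9, Itgav, Itgb5, Itga3 and Itgb3 passed the adjusted p without the fold.

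The matrix ligands were read from the same fit. Of 10 collagen genes, 8 were called and all 8 were lower with AFs, with a median log2 fold change of -0.67. Of 12 tested RGD-type and related ligands, 3 were called lower and 1 higher. The 4 ligands with the smallest adjusted p were Postn (periostin, -1.87 ± 0.15, edgeR adjusted p = 1.6e-07), Fbn1 (fibrillin-1, -0.93 ± 0.13, adjusted p = 5.51e-05), Col5a1 (-0.93 ± 0.15, adjusted p = 0.000326) and Col6a3 (-0.70 ± 0.12, adjusted p = 0.000394). Of 9 tested laminin genes, edgeR, DESeq2 and limma-voom called none. By the edgeR adjusted p alone 2 were lower and none was higher, and at an unadjusted p under 0.05 there were 2 lower and 1 higher. Among 29 tested adaptor and signalling genes, which link the integrin tail to actin, such as talins, kindlins and focal adhesion kinase, the same tools also called none. By the edgeR adjusted p alone 1 adaptor gene was higher and 4 were lower, beside the 12.5% and 14.5% of all tested genes given above. At an unadjusted p under 0.05 there were 1 higher and 7 lower, and the median log2 fold change of the 29 was -0.02.

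Markers of other cell types also differed in bulk. Of 10 fibroblast markers 5 were called, all lower with AFs, and their summed level was 16640 and 18280 CPM in imCM-NF against 11580 and 9140 CPM in imCM-AF. The fibroblast markers Col1a1, Col1a2, Col3a1, Col5a1 and Postn are also on the ligand list. Of 10 endothelial markers 5 were called, all lower, with summed levels of 970 and 1008 CPM against 661 and 628 CPM. Of 10 cardiomyocyte markers 2 were called, both higher, with summed levels of 41010 and 29990 CPM against 39110 and 42830 CPM, and no marker of these 3 lists was at 0. In bulk, fewer cells of a type and less RNA per cell cannot be told apart, and the part of the fibroblast and endothelial RNA in the lower integrin levels was not tested.

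The single-cell libraries show in which cells the subunits were read. Of 2462 wells 2247 were kept, 1296 from the library labelled cardiomyocytes and 951 from the other, with median depths of 13730 to 51940 UMIs over the numbered well types. Both chips shared 269 well barcodes. The wells carry the names NCM0, NFNCM and AFNCM in the first library and NF0, NF, AF0 and AF in the second, with 2 or 3 numbered types a name. The study uses NF and AF for the co-cultured neonatal and adult fibroblasts, while what NCM0, NF0, AF0 and the numbers stand for is not given in the sources used here. With 1 library per label there is no test, and intervals are 95% exact intervals that cover counting error only. Clustering without integrin genes gave 16 clusters. By their markers, 1041 wells were cardiomyocyte-like, 922 fibroblast-like, 118 endothelial-like and 38 macrophage-like, and a shallow cluster of 128 wells stayed unnamed. Labels and clusters did not match in full: 18.4% of AFNCM, 14.9% of NFNCM and 7.36% of NCM0 wells were fibroblast-like, and 6.86% of NF0 and 5.08% of NF wells were cardiomyocyte-like. Since co-cultured cells had been sorted by dye, these shares say nothing of the cultures. Over all wells of a name, the summed fibroblast markers were at 1048 CPM in NFNCM and 2628 in AFNCM wells. Endothelial markers were at 105 CPM in NFNCM and 452 in AFNCM wells. Both sums were higher in AFNCM wells, while in bulk both were lower with AFs, and this difference was not tested.

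Of the 10 subunits, 8 had a higher level in fibroblast-like than in cardiomyocyte-like wells, and Itga7 and Itga9 had a lower one. How many of all genes were higher, or had numbered types that did not overlap, was not counted. The counts of members, here and for the well names below, are therefore not set against a general share. The level is the sum of a gene's UMIs over the wells of a class in CPM, here counted in UMIs, so deep wells weigh more. Itga7 was at 63.9 CPM (60.8 to 67.0) in cardiomyocyte-like wells and at 7.53 (6.67 to 8.47) in fibroblast-like wells. It was higher in cardiomyocyte-like wells by 8.48 times (7.47 to 9.66). Over the numbered types it ran from 46.9 to 88.2 in the 8 cardiomyocyte-like groups of at least 20 wells and from 0 to 20.4 in the 13 fibroblast-like groups, which did not overlap. Itga9 was at 30.7 (28.6 to 32.9) against 14.3 (13.1 to 15.6) CPM, 2.15 times higher in cardiomyocyte-like wells, but its types overlapped, at 17.2 to 42.9 against 3.86 to 28.9.

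Among the subunits with the higher level in fibroblast-like wells, 2 were separated over all numbered types. Itgav reached 420 CPM in fibroblast-like and 89.0 in cardiomyocyte-like wells, a ratio of 4.72 (4.52 to 4.93), with types at 215 to 748 against 22.4 to 121. With wells classed by the larger marker sum instead, the Itgav ratio was 2.94. Itgb1 reached 2008 against 855, a ratio of 2.35 (2.31 to 2.38), with types at 1298 to 2727 against 685 to 953. Itga8 had a ratio of 7.19 (5.14 to 10.3), at low levels of 10.4 against 1.45 CPM and with overlapping types, and this ratio was 2.35 with wells classed by the larger marker sum. Itga5 (27.2 against 8.48, ratio 3.20) and Itga11 (5.57 against 1.64, ratio 3.39) also overlapped over types, as did Itga6 (ratio 1.82), Itgb5 (ratio 1.80) and Itga1 (ratio 1.35).

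UMIs of most members sat in a minority of wells. In fibroblast-like wells Itgb1 had a UMI in 99.7% of wells and Itgav in 89.8%, but Itga11 in 5.75% (53 wells) and Itga8 in 10.2%. In cardiomyocyte-like wells Itgb1 had a UMI in 85.3%, Itga7 in 33.3%, Itgav in 31.0%, Itga9 in 21.3% and Itga11 in 1.73% (18 wells). The median depth was 30860 UMIs in fibroblast-like and 17248 UMIs in cardiomyocyte-like wells, so shares of wells lean towards the former. As a background, Itga7 had a UMI in 1 of 38 macrophage-like wells (2.63%) and in 8.03% of fibroblast-like wells, and Itga11 in 3 of 38 macrophage-like wells (7.89%), a share above that in fibroblast-like wells, at a median depth of 27980 UMIs in macrophage-like wells. This Itga11 share rested on 3 wells, with 7 of their 12 UMIs in 1 well. Macrophage-like wells also held fibroblast markers, at a summed 1464 CPM. The comparison therefore cannot decide whether the Itga11 share in fibroblast-like wells lies above background. Wells with a UMI often held several, for example 4.82 Itga7 UMIs a well in cardiomyocyte-like and 5.22 Itga1 UMIs a well in fibroblast-like wells, so UMIs are not independent and the counting intervals are too narrow.

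**Figure D3:**
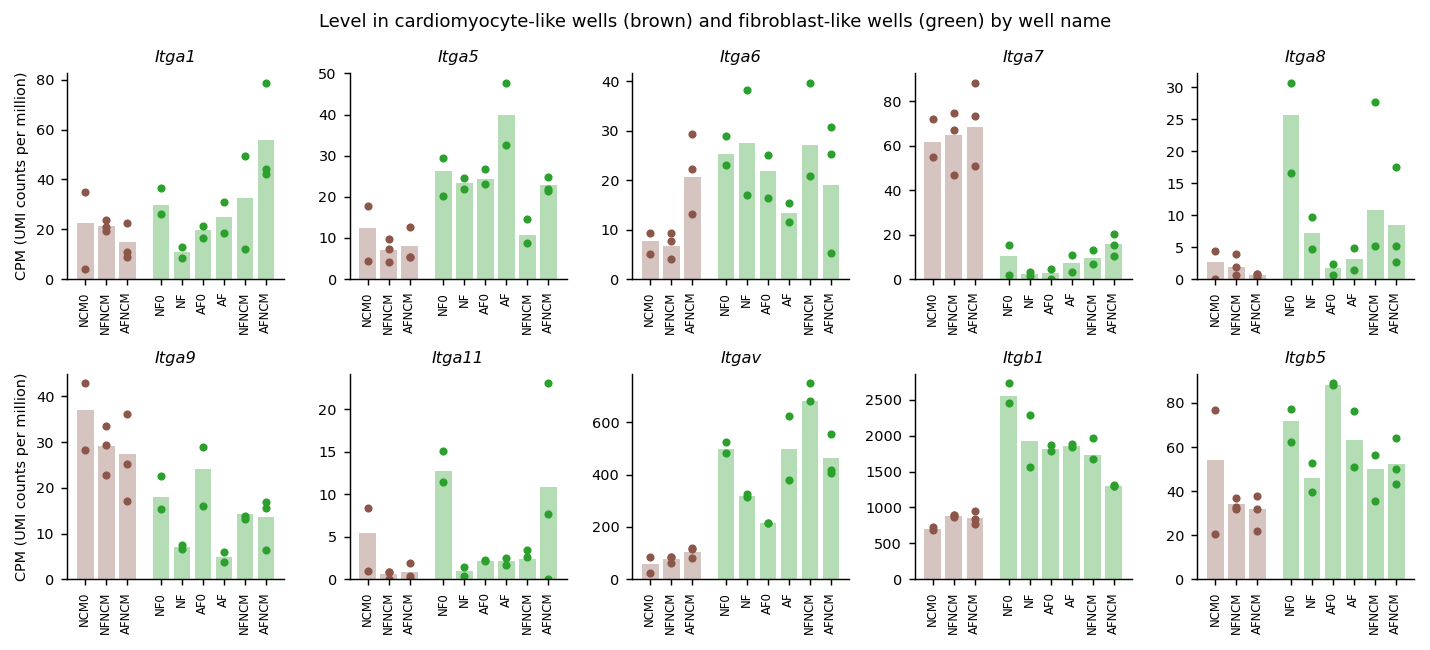
Level of each subunit in CPM by well name, in cardiomyocyte-like wells (brown) and fibroblast-like wells (green). Bars are all wells of a name and points its numbered types with at least 20 wells. Itga7 points are higher in every brown column than in any green one, and Itgav and Itgb1 points are higher in every green column.

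The makeup of the alpha chain UMIs differed between the classes. Of 5927 UMIs of the 8 alpha members in cardiomyocyte-like wells, Itgav took 39.3% (38.1 to 40.6), Itga7 28.2% (27.1 to 29.4), Itga9 13.6% and Itga1 8.42%. Of 19821 such UMIs in fibroblast-like wells, Itgav took 78.8% (78.2 to 79.4), Itga5 5.10% and Itga7 1.41%. In endothelial-like wells, with 1773 UMIs, Itga1 took 12.4% and Itga6 11.3%, beside 63.6% for Itgav. Itgb1 made up 93.1% to 98.8% of the UMIs of both beta members in all 4 named classes. The bulk libraries ordered the alpha chains otherwise. Itga5 took 3.75% of the alpha UMIs in cardiomyocyte-like wells. In bulk it had 62.2 to 78.5 CPM per kb, above Itgav with 10.2 to 15.8. The reason was not tested, so UMI shares do not show which alpha chain leads.

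**Figure D4:**
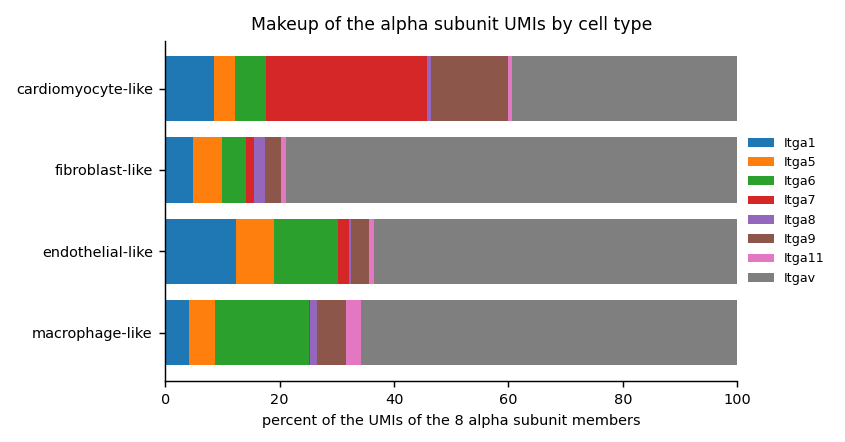
Share of each alpha member among the UMIs of the 8 alpha members, in percent, for 4 classes of wells. The red Itga7 part is 28.2% in cardiomyocyte-like and 1.41% in fibroblast-like wells, and the grey Itgav part grows from 39.3% to 78.8%.

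Among the 7 cardiomyocyte-like clusters the alpha chains were uneven. Cluster 10, a group of 46 wells led by the atrial genes Myl7, Sln and Nppa, had Itga6 at 116 CPM, against 1.60 to 10.1 in the other 6. Cluster 8, with 39 wells led by Ttn and Myh6, had Itga9 at 94.1 and Itga7 at 101 CPM, while Itga7 ran from 21.5 to 92.1 in the other 6. Cluster 6 had the lowest Itga7 level of them, 21.5, and the highest Itgav level, 252 CPM, against 34.0 to 173 in the others. It was also the only one of them with a fibroblast marker raised, and 20 of its 138 wells came from the fibroblasts library. Whether cluster 6 held wells of mixed cell types was not tested. Among the 5 fibroblast-like clusters, cluster 13, led by Fbln2, Col4a1 and Col5a2, had the highest levels of 8 subunits, among them Itga8 at 28.2, Itga11 at 14.2, Itgav at 534 and Itgb1 at 2697 CPM. Itga9 was highest in cluster 16 (24.4) and Itga1 in cluster 4 (32.4). Cluster 16, which held 166 wells named AF0 of its 167, had the lowest Itgav level of the 5, 215 CPM.

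**Figure D5:**
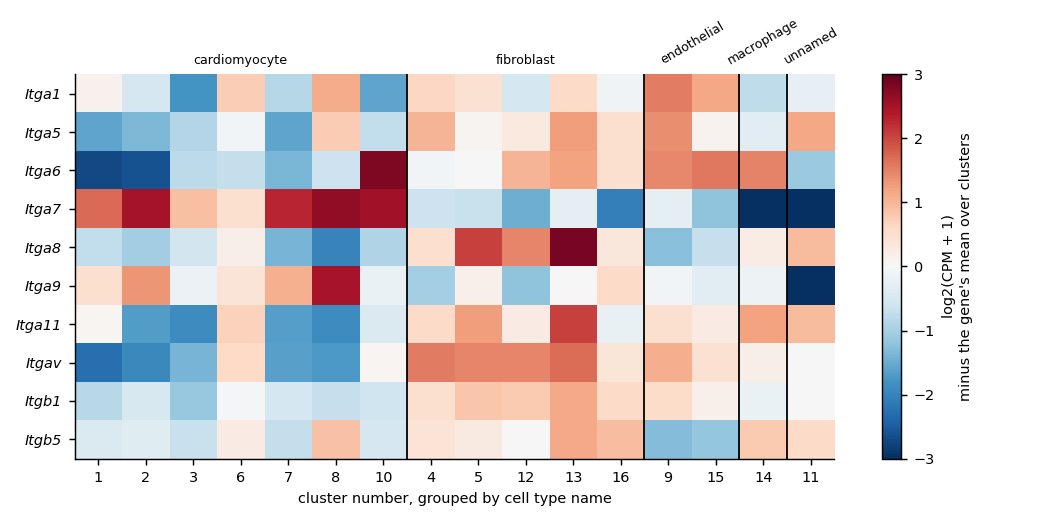
Level of each subunit in 16 clusters, as log2(CPM + 1) minus the gene's mean over clusters, with colours capped at 3 either side. The Itga7 row is red in the cardiomyocyte-like clusters, and the single dark red Itga6 field is cluster 10, at 116 CPM.

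Across the well names, cardiomyocyte-like wells came from different clusters: NFNCM wells mostly from clusters 1 and 2, AFNCM wells mostly from clusters 3 and 7, and NCM0 wells mostly from clusters 1, 2 and 6. Cluster 3, which held 139 of the 352 AFNCM wells, had a median of 5184 UMIs, 0.284 of the median of its library, and was led by Zfp944, Gm25162 and Gm13340. Its part in the AFNCM levels was not tested. Within them Itga7 was at 61.8 CPM in NCM0, 64.7 in NFNCM and 68.6 in AFNCM wells, with overlapping types. Itgb1 was at 701 in NCM0, 881 in NFNCM and 856 in AFNCM wells, and both NCM0 types (685 and 725) lay below all 6 others (775 to 953). Itgav was at 60.2 in NCM0, 76.6 in NFNCM and 105 in AFNCM wells, with a ratio of AFNCM to NFNCM of 1.37 (1.25 to 1.51) and overlapping types (82.4 to 121 against 64.2 to 83.7). Without the 46 wells of cluster 10, an alternative chosen after the values were seen, the Itgav levels were 89.9 in AFNCM and 76.2 in NFNCM wells, a ratio of 1.18 (1.06 to 1.31). In bulk Itgav was lower with AFs. With cluster 10 included, the same ratio was 1.14 (0.819 to 1.60) for Itga5 and 0.938 (0.791 to 1.11) for Itga9. It was 0.929 (0.794 to 1.09) for Itgb5 and 1.33 (0.406 to 4.66) for Itga11. Types overlapped for each of these members, which were also lower in bulk. The bulk and single-cell libraries were separate, and the difference between them was not tested. Itga6 was at 7.60 in NCM0, 6.71 in NFNCM and 20.6 in AFNCM wells, where all 3 AFNCM types (13.3 to 29.4) lay above all 5 others (4.04 to 9.37). Without cluster 10 the Itga6 levels were 6.84, 2.59 and 5.98 CPM and the types of AFNCM and NFNCM overlapped. Itga11 rested on 6 to 27 UMIs a name. The 2 NCM0 types differed widely for Itgav (22.4 and 85.7) and Itga1 (3.98 and 34.8).

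In fibroblast-like wells the names NF0, NF, AF0 and AF also drew on different clusters: NF0 on clusters 5 and 13, NF on clusters 5 and 12, AF0 on cluster 16 and AF on cluster 4. Among these names Itga8 and Itga11 were highest in NF0 wells, at 25.7 and 12.7 CPM. Fibroblast-like wells of the cardiomyocytes library also reached such levels in single types. Their highest NFNCM type had Itga8 at 27.75 and their highest AFNCM type had Itga11 at 23.05. Their 2 NF0 types (16.5 and 30.7 for Itga8, 15.1 and 11.5 for Itga11) lay above both types of NF, AF0 and AF, which reached at most 9.65 and 2.55. Itga11 then stood at 0.923 in NF, 2.19 in AF0 and 2.12 in AF wells. Itgav was at 497 in NF0, 319 in NF, 216 in AF0 and 497 in AF wells, so that it was lower in AF0 than in NF0 (ratio 0.435) and higher in AF than in NF (ratio 1.56), in both cases with separate types. Over all wells of a name, the summed epicardial markers were at 347 CPM in AF0 and 36.8 in NF0, the endothelial markers at 411 and 62.7, and the fibroblast markers at 8883 in AF and 2962 in NF. Of the marker lists, cluster 16 had 6 fibroblast, 3 epicardial and 2 endothelial genes raised. The part of these differences in the levels of the members was not tested. Itgb1 was highest in NF0 (2547) and at 1925, 1813 and 1862 in NF, AF0 and AF wells, where the NF types (1565 and 2283) enclosed those of AF0 and AF. Itga5 was highest in AF wells at 39.9, against 23.3 in NF, 24.4 in AF0 and 26.2 in NF0 wells, which overlapped over types. Itga9 was at 24.2 in AF0 and 17.9 in NF0 but at 4.90 in AF and 7.02 in NF wells, and Itgb5 was highest in AF0 at 88.3.

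Fibroblast-like wells of the cardiomyocytes library, 95 named AFNCM and 78 named NFNCM, came mostly from cluster 4 and from clusters 5 and 12. In these wells Itgav was at 462 in AFNCM and 680 CPM in NFNCM (ratio 0.680, 0.633 to 0.731), and Itgb1 at 1305 and 1726 (ratio 0.756), with separate types for both. Only 2 NFNCM types had at least 20 such wells. Itga5 went the other way, at 22.8 in AFNCM and 10.7 in NFNCM, with types of 21.4 to 24.8 against 8.65 and 14.5. The other 7 members overlapped over types. Among them Itga11, the member called in bulk, was at 10.9 in AFNCM (32 UMIs) and 2.39 in NFNCM (6 UMIs). This was a ratio of 4.56 (1.88 to 13.4). Its AFNCM types, from 0 to 23.05, enclosed the NFNCM types of 2.64 and 3.46. In bulk Itga11 was lower with AFs, and this difference in direction was not tested.

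Of the 29 adaptor genes with a column, 26 had at least 50 UMIs, and 23 of these were higher in fibroblast-like than in cardiomyocyte-like wells, with a median ratio of 1.73. The 3 that were higher in cardiomyocyte-like wells, named after their values were seen, were Itgb1bp2 (melusin, a muscle protein that binds the beta1 tail, 44.9 against 1.34 CPM), Parvb (20.4 against 7.32) and Tln2 (86.3 against 53.0). Collagen ligands were higher in fibroblast-like wells in 10 of 10 cases and RGD-type ligands in 12 of 12, with median ratios of 6.65 and 4.10. However, the collagens Col1a1, Col1a2, Col3a1 and Col5a1 and the RGD-type ligand Postn are among the markers that named these wells. Laminin genes were split, 4 against 5, with a median ratio of 0.951. How many of all genes were higher in fibroblast-like wells was not counted. These adaptor and ligand counts are therefore not set against a general share either.

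Over the 16 clusters the genes whose levels ran most like those of a member were, with Pearson's r of log2(CPM + 1) among 9499 genes, Clasp1 (0.962) and Osgepl1 (0.957) for Itga7, Thbs1 (0.934) and Cd109 (0.932) for Itgav, and Ltbp2 (0.924) and Col11a1 (0.919) for Itga8. For Itgb1 they were Wdr75 (0.927) and Actr1b (0.912), for Itgb5 Plxna1 (0.930) and Atf5 (0.874), and for Itga5 Rlim (0.922) and Copb1 (0.920). Itga9 ran with Cpped1 (0.917) and Cog6 (0.915), Itga1 with Aplp2 (0.879) and Prmt5 (0.853), Itga11 with Adamts10 (0.877) and Fhl3 (0.861), and Itga6 with Agpat5 (0.821) and Cav2 (0.801). Clusters share 2 libraries and differ in depth, and of so many genes some run alike by selection, so these values only describe the clusters.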

How the data were processed

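Bulk values are raw counts for each gene as deposited, which the authors made from subread alignments to mm10 by featureCounts with its built-in RefSeq genes (strand setting not stated). For the single cells they deposited UMI counts per gene and well, from STAR and featureCounts with Ensembl genes. The submitters' processing notes name Subread 1.4.6-p1, then featureCounts, STAR 2.5.2b and the build mm10. Entrez identifiers took their symbols from RefSeq, and 1904 of 27179 matched none, which held 3.52% of counts. Spike-in columns (85 and 79) were not used, and a table of fold changes that the labels name was not used here.

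Bulk genes with CPM over 1 in at least 2 libraries (14041) were tested with R 4.3.3 and edgeR 4.0.16 (quasi-likelihood test, TMM scaling, no term but group), with Benjamini-Hochberg adjustment over all tested genes. DESeq2 1.42.0 and limma 3.58.1 were alternatives. The script was tested on simulated data. Counts of the 2 libraries of a group differed by more than sampling noise.

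Wells with at least 500 genes, at least 50% alignment and UMI totals within 2 SD of the mean were kept, and no doublet caller was run. Counts scaled to 10000 a well, without integrin and mitochondrial genes, were clustered in scanpy 1.11.5 (2270 variable genes, 10 components, 30 neighbours, Leiden resolution 1). A cluster took the name of the cell type with most raised markers, at least 3. A shallow cluster (median UMIs 0.256 of its library's) with none of them among its 10 leading genes stayed unnamed. Clusters 5, 12 and 16 (243, 177 and 167 of the 922 fibroblast-like wells) were not shallow and were named from 4, 4 and 6 raised fibroblast markers, none of them among their 10 leading genes.

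The rule for named genes was all 10 members, other subunits that were called, the 4 called ligands and the 4 called adaptors with the smallest adjusted p, and the 2 genes most like each member over clusters, among genes with at least 500 UMIs. Members and lists were chosen with earlier results of these data known. Sequences are from RefSeq (GRCm38.p6), where 8 of 10 members matched. No protein sequences were used here.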

Additional observations from a re-analysis of the deposited data

Results flagged for a closer look

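The negative control wells of the fibroblasts library held 4 Itgb1 UMIs among 3587 UMIs in 5 wells, more than the 3 UMIs that a count of 0 allows. The 5 negative control wells of the cardiomyocytes library held 1 Itgb1 UMI among 1465, and no other member had a UMI in either set.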

How the results depend on the processing

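The count of genes called in bulk was 1564, and 3789 by the adjusted p alone, 565 with a log2 fold change over 1, and 879 to 1929 without 1 library, lowest without imCM-NF replicate 2 (879) and imCM-AF replicate 2 (988). Of the 10 members, 5 had an adjusted p under 0.05; this was 3 with RLE and with upper quartile scaling, 2 with DESeq2, and 2 to 3 without 1 library. DESeq2 called 0 of the 10 members, and 0 to 2 were called without 1 library, 2 without imCM-NF replicate 1. With RLE, upper quartile scaling and DESeq2, Itga5 had log2 fold changes of -0.28, -0.26 and -0.28, and Itgb5 -0.29, -0.26 and -0.29 (-0.28 with CPM over 5), none past the test. Itga11 gave -0.91 in DESeq2. Without 1 library Itga5 ran from -0.32 to -0.26, Itgb5 from -0.39 to -0.19 and Itga11 from -1.03 to -0.78. Members that had not passed the test changed sign without 1 library: Itga1 (-0.10 to 0.15), Itga7 (-0.063 to 0.28) and Itga8 (-0.50 to 0.24). Itga9 and Itgav kept their direction and an adjusted p under 0.05 under all alternatives run, and Itgav was the second member called without imCM-NF replicate 1 (-0.58). Upper quartile scaling gave 61.9% of calls as higher, against 55.2%.

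Libraries share replicate numbers, but same-numbered libraries deviated apart (r = -0.131), so the numbers were not taken as pairs. With the replicate block 1430 genes were called, 3 members had an adjusted p under 0.05, and Itga5 (-0.29) and Itgb5 (-0.30) did not pass. With crossed numbers, added after seeing the data, 1668 genes were called.

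Leiden resolution 0.5 kept 10 of 10 class ratios within their intervals, a call per well by the larger marker sum 5 of 10 (Itga8 2.35, Itgav 2.94, Itga5 2.31, Itgb1 1.95 and Itga6 1.44 moved, so that Itga11 at 3.08 was then the largest ratio of fibroblast-like over cardiomyocyte-like wells; 271 wells lay near its limit), and leaving out cluster 3, added after seeing the data, 9 of 10, with 8 members higher in fibroblast-like wells each time. In 3 members every fibroblast name was above every cardiomyocyte name by level. By share of wells it was 5, and 3 when wells were thinned to 5000 UMIs. Of 70 levels per well name, 20 left their interval with the gene minimum alone, 36 as a mean over wells, and 33 within clusters of the labelled type.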
